A study of Mus musculus with 10 samples.

Results

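The genes of fibroblast growth factor (FGF) signalling were examined in mouse E14 embryonic stem (ES) cells, as a list of 33 named genes made up of FGF ligands, their receptors and the Sprouty, Spred and Dusp6 feedback genes. Counts were found for 32 of the 33, comprising 20 ligands, 5 receptors and 7 feedback genes, among 24500 counted genes, and Spry3 was not analysed here. The 20 Fgf genes are grouped as ligands by name alone, although some, such as Fgf11 and Fgf12, code for intracellular FGF homologous factors. The study compared control E14 cells, labelled wild-type, with E14 cells labelled as an Ezh2 knockout of exon 14, both of the strain labelled 12910la. The second group is called ex14D-Ezh2 after the study, which used CRISPR-Cas9 to place an in/del in exon 14 so that the splice form without this exon was the functional EZH2 left. ChIP-seq was carried out with antibodies against H3K27me3 and EZH2 in 2 libraries per antibody and genotype, with 1 input library per genotype. The labels do not say whether the 2 libraries came from separate clones or cultures, so every p-value below measures the spread between these libraries only.

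FGF ligands bind receptor tyrosine kinases on the cell surface, and the receptors signal through adaptors, Ras and the ERK kinases. ERK activity switches on Sprouty, Spred and Dusp6, which damp the same cascade. In mouse ES cells Fgf4 is the ligand the cells make for themselves and Fgfr1 is the main receptor, and their signal moves cells out of naive pluripotency. EZH2 is the catalytic subunit of Polycomb repressive complex 2 (PRC2), which trimethylates lysine 27 of histone H3 and in ES cells sits mostly at CpG-rich promoters of silent developmental genes.

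PRC2 target promoters are known for their density of CG dinucleotides, so the start-site sequences of 5 genes are shown. Relative H3K27me3 counts rose in ex14D-Ezh2 cells at 3 of them, and 2 are feedback genes short of the 2-fold threshold over input used below. Each sequence runs 5′ to 3′ along the gene from 250 bases before to 50 bases after the transcription start site (TSS), comes from RefSeq on GRCm38.p6, and has every CG in capitals. Entries were matched for 25 genes of the list. Fgf1, Fgf8, Fgf15, Fgf17, Fgf20, Fgfr1 and Spry4 are named only.
Fgf5, chr5:98253934-98254233, forward strand: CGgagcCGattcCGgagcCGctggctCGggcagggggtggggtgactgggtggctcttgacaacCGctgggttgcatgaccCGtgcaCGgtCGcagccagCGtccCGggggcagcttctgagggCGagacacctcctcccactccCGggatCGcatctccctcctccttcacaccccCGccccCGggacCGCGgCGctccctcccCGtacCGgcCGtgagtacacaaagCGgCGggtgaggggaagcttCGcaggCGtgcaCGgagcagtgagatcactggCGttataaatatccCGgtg
Fgf9, chr14:58072436-58072735, forward strand: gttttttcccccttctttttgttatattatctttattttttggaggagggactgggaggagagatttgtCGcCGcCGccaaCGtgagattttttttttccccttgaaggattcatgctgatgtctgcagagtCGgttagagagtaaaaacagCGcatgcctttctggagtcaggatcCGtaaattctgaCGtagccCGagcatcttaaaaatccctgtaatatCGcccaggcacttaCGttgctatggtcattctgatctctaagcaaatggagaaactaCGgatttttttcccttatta
Fgfr3, chr5:33721474-33721773, forward strand: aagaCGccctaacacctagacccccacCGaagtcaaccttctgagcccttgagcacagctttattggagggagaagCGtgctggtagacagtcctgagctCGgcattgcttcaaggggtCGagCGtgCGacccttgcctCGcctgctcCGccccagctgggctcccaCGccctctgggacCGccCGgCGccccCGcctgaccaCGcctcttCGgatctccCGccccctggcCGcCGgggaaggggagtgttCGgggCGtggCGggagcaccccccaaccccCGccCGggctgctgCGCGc
Spry2, chr14:105896770-105897069, reverse strand: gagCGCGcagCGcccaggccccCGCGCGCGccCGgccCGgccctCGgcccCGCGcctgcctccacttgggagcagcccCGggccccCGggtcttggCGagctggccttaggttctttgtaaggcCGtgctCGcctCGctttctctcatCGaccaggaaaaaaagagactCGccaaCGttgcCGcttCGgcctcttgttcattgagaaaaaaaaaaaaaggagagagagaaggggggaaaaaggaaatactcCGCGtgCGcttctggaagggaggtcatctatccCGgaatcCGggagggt
Dusp6, chr10:99262981-99263280, forward strand: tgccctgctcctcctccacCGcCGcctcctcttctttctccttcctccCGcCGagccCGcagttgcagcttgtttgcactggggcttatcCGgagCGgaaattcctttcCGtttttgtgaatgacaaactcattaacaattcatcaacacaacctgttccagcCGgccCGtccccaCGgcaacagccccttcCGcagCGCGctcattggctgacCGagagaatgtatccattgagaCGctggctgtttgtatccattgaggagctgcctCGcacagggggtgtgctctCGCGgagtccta
The letters CG were found 29 times in the Fgf5 sequence, 12 times at Fgf9, 26 times at Fgfr3, 28 times at Spry2 and 19 times at Dusp6. Among 17510 promoters of the same length, 1 per gene, the median was 13 and 95.3% held at least 1 CG. A count at least as high as that of Fgf5 was found in 16.8% of promoters, and one at least as high as that of Fgf9 in 53.3%. In these windows the promoters past and short of the 2-fold threshold therefore had overlapping CG counts.

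H3K27me3 reads had been counted in a 1 kb window centred on the TSS, and are given as CPM, read counts scaled to the same total of reads on gene rows in every library. The level over input is log2 of (CPM + 1) over (input CPM + 1) with the input of the same genotype, and a promoter was called marked where this was at least 1, a 2-fold enrichment, in both libraries of a genotype. There was 1 input library per genotype, so the error of the input is unknown. Gene rows held 5.65% and 5.98% of counted reads in the control H3K27me3 libraries and 7.58% and 6.86% in the ex14D-Ezh2 ones. In the inputs they held 1.9% in control and 1.92% in ex14D-Ezh2. Scaling to gene rows therefore lowers every level over input, and more in ex14D-Ezh2 than in control. Of the 32 promoters, 11 were marked in control cells, against 11.3% of all 24500, and 11 in ex14D-Ezh2 cells, against 9.14% of all. The marked genes in control cells were the ligands Fgf2, Fgf3, Fgf5, Fgf8, Fgf9, Fgf11, Fgf15, Fgf18 and Fgf20 and the receptors Fgfr3 and Fgfr4. In ex14D-Ezh2 cells Fgf20 was no longer marked and Fgfrl1 was, so that 10 genes were marked in both genotypes. Both switches rest on few input reads, 29 in control and 18 in ex14D-Ezh2 at Fgf20 and 24 and 10 at Fgfrl1. None of the 7 feedback genes was marked in either genotype (0 of 7). With library sizes taken from all counted reads, on genes or not, 17 promoters were marked in control cells and 14 in ex14D-Ezh2 cells. The comparison of the genotypes by marked promoters therefore depends on the scale.

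**Figure D1:**
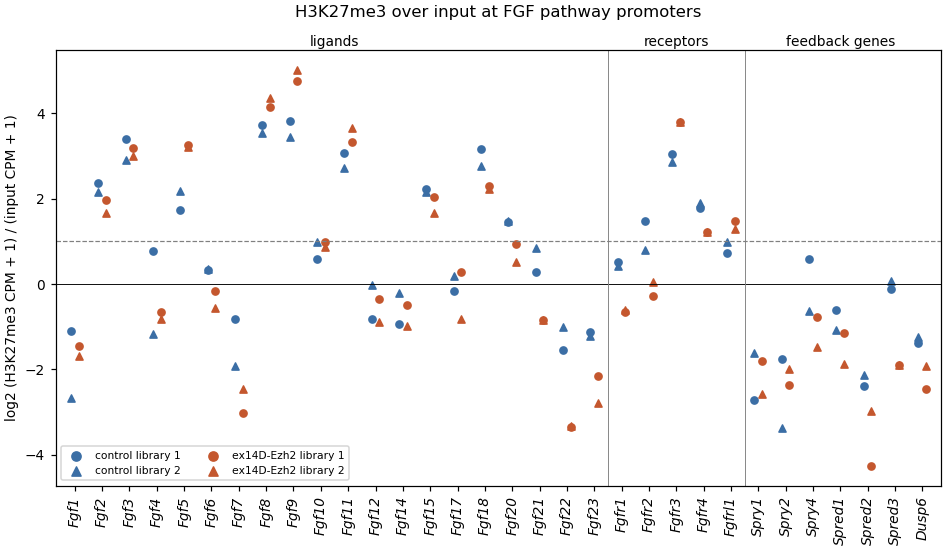
H3K27me3 level over input at the promoters of the 32 genes, on a log2 scale, with 1 point per library (blue control, orange ex14D-Ezh2, circles library 1, triangles library 2). The dashed line marks the 2-fold threshold of 1, and all 7 feedback genes lie below it while Fgf8 and Fgf9 lie highest.

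Relative to the other promoters, H3K27me3 counts at Fgf9, Fgf8, Fgf5 and Fgfr3 rose in ex14D-Ezh2 cells, by 3.07-, 2.07-, 2.75- and 2.12-fold. Those at Fgf20 and Fgf22 fell by 1.96- and 3.35-fold on the linear scale. These sizes depend on the TMM scaling of the fit. With plain library sizes the log2 fold changes were 1.17, 0.60, 1.01 and 0.63 for the rises. For the falls they were -1.42 and -2.19, in the same order. At Fgf9, a ligand needed for lung and testis development, H3K27me3 counts were 735 and 569 CPM in control libraries 1 and 2 and 1330 and 1590 CPM in ex14D-Ezh2 libraries 1 and 2. At Fgf8, which patterns the gastrula, the limb and the midbrain, they were 601 and 521 CPM in control and 782 and 914 CPM in ex14D-Ezh2. Both ex14D-Ezh2 libraries lay above both control libraries at these ligands. The log2 fold change was 1.62 (SE 0.21, edgeR adjusted p = 1.02e-05) at Fgf9 and 1.05 (SE 0.20, edgeR adjusted p = 0.000802) at Fgf8. Fgf5 marks the epiblast after the naive state and had 182 and 249 CPM in control and 445 and 429 CPM in ex14D-Ezh2, a log2 fold change of 1.46 (SE 0.21, edgeR adjusted p = 2.92e-05). Over input, Fgf5 went from 3.34- and 4.56-fold in control to 9.56- and 9.24-fold. The groups did not overlap on either scale.

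Among the receptors, Fgfr3, a restraint on bone growth, had 515 and 450 CPM in control and 748 and 747 CPM in ex14D-Ezh2. Its log2 fold change was 1.08 (SE 0.20, edgeR adjusted p = 0.000459), and the groups did not overlap. Fgfr4, which pairs with Klotho proteins to receive hormone-like FGFs in liver, had 188 and 203 CPM in control and 124 and 125 CPM in ex14D-Ezh2, and remained above 2-fold over input in all 4 libraries. Its log2 fold change after scaling was -0.20 (SE 0.22, edgeR adjusted p = 0.676). Fgfr1 had 74.0 and 69.4 CPM in control and 34.5 and 36.1 CPM in ex14D-Ezh2, between 0.631- and 1.43-fold over input (log2 fold change -0.57, SE 0.31, edgeR adjusted p = 0.313). Fgfr2, used by the primitive endoderm, had 145 and 90.7 CPM in control and 59.3 and 75.3 CPM in ex14D-Ezh2 (log2 fold change -0.34, SE 0.28, edgeR adjusted p = 0.564). These last 3 receptors had lower plain CPM in both ex14D-Ezh2 libraries, but none passed the test. An H3K27me3 peak nevertheless overlapped the Fgfr1 and Fgfr2 windows in all 4 libraries. At Fgfr1 it covered 1000 and 281 bp in control and 57 and 118 bp in ex14D-Ezh2, and at Fgfr2 1000 bp in each library. Fgfrl1, a receptor-like protein without a kinase domain, had 97.6 and 116 CPM in control and 68.2 and 60.1 CPM in ex14D-Ezh2. Its level over input nevertheless went from 1.65- and 1.97-fold to 2.77- and 2.44-fold, with 58.6 CPM in the control input and 24 CPM in the ex14D-Ezh2 input, and its log2 fold change was -0.29 (SE 0.26, edgeR adjusted p = 0.599).

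Of the ligands that fell, Fgf20, a close relative of Fgf9 needed in the cochlea, had 195 and 197 CPM in control and 84.1 and 62.5 CPM in ex14D-Ezh2. This was 2.73- and 2.76-fold over input in control and 1.93- and 1.44-fold in ex14D-Ezh2, with a log2 fold change of -0.97 (SE 0.24, edgeR adjusted p = 0.00893). Fgf22, a ligand that organises synapses, had 20.2 and 29.9 CPM in control and 5.51 and 5.61 CPM in ex14D-Ezh2, with a log2 fold change of -1.75 (SE 0.44, edgeR adjusted p = 0.0109). At Fgf22 all 4 libraries lay below input on the gene-row scale, from 0.0990- to 0.497-fold, so the fall took place at a promoter that was not marked. The fall rests on few reads, 12 and 28 in control and 8 and 7 in ex14D-Ezh2.

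The other marked ligands did not pass the test. Fgf2, basic FGF, had 254 and 221 CPM in control and 173 and 139 CPM in ex14D-Ezh2 (log2 fold change -0.15, SE 0.21, edgeR adjusted p = 0.754). Fgf3, needed for the inner ear and tail, had 581 and 413 CPM in control and 603 and 525 CPM in ex14D-Ezh2 (log2 fold change 0.64, SE 0.21, edgeR adjusted p = 0.0533). Fgf11, an intracellular FGF homologous factor, had 545 and 425 CPM in control and 446 and 563 CPM in ex14D-Ezh2 (log2 fold change 0.51, SE 0.21, edgeR adjusted p = 0.139). The plain CPM of the genotypes overlapped at Fgf3 and Fgf11 and did not at Fgf2, where ex14D-Ezh2 was lower. Fgf15, the gut hormone that represses bile acid synthesis, had 257 and 241 CPM in control and 232 and 177 CPM in ex14D-Ezh2 (log2 fold change 0.17, SE 0.21, edgeR adjusted p = 0.724). Fgf18, which acts on cartilage and bone, had 400 and 304 CPM in control and 181 and 171 CPM in ex14D-Ezh2 (log2 fold change -0.54, SE 0.21, edgeR adjusted p = 0.112). Both had lower plain CPM in ex14D-Ezh2 without overlap, and both were at least 3.17-fold over input in every library.

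Fgf10, the ligand of limb and lung budding, lay just under the threshold with 1.51- and 1.97-fold over input in control and 1.99- and 1.84-fold in ex14D-Ezh2 (89.2, 116, 91.7 and 84.9 CPM, log2 fold change 0.22, SE 0.26, edgeR adjusted p = 0.701). Fgf4 had 101 and 25.6 CPM in control and 31.7 and 28 CPM in ex14D-Ezh2 (log2 fold change -0.56, SE 0.42, edgeR adjusted p = 0.511). The control libraries disagreed at Fgf4, library 1 being at 1.71-fold over input and library 2 at 0.446-fold, and both ex14D-Ezh2 libraries lay between them. Fgf12, another intracellular homologous factor, had 30.3, 53.4, 37.2 and 25.6 CPM in control 1, control 2, ex14D-Ezh2 1 and ex14D-Ezh2 2, and Fgf23, the bone-derived phosphate hormone, had 25.2, 23.5, 19.3 and 12.0 CPM. Neither was above input in any library on the gene-row scale. An H3K27me3 peak nevertheless overlapped the Fgf12 window in control library 1 (71 bp), control library 2 (1000 bp) and ex14D-Ezh2 library 1 (137 bp). The 8 genes not given singly, Fgf1, Fgf6, Fgf7, Fgf14, Fgf17, Fgf21, Spred2 and Spred3, had 3.37 to 64.0 CPM in control and 2.07 to 53.1 CPM in ex14D-Ezh2, and log2 levels over input of -2.67 to 0.84 and -4.26 to 0.29. The 7 of them that could be tested had log2 fold changes from -1.14 to -0.07 and edgeR adjusted p from 0.0548 (Spred3) to 0.955.

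On the gene-row scale the feedback genes were mostly below input in H3K27me3. That scale lowers every level over input, so these values do not show a depletion of the mark. Spry2, an inhibitor of Ras-ERK signalling, had 15.1 and 4.27 CPM in control and 10.3 and 13.6 CPM in ex14D-Ezh2, between 0.0962- and 0.295-fold over input (log2 fold change 0.90, SE 0.54, edgeR adjusted p = 0.383). Dusp6, the phosphatase that inactivates ERK, had 13.5 and 14.9 CPM in control and 9.65 and 14.4 CPM in ex14D-Ezh2, between 0.182- and 0.423-fold (log2 fold change 0.18, SE 0.44, edgeR adjusted p = 0.873). The genotypes overlapped at both. Spry1, another Sprouty, had 8.41, 19.2, 13.1 and 7.21 CPM in control 1, control 2, ex14D-Ezh2 1 and ex14D-Ezh2 2 (edgeR adjusted p = 0.961), and Spred1, a membrane-bound relative, had 25.2, 18.1, 17.9 and 10.4 CPM (edgeR adjusted p = 0.922). Spry4 had the highest level over input of the Sprouty genes, 1.51- and 0.652-fold in control. Its counts were 92.5 and 39.5 CPM in control and 30.3 and 18.4 CPM in ex14D-Ezh2 (log2 fold change -0.93, SE 0.38, edgeR adjusted p = 0.146). Its plain CPM did not overlap between the genotypes, but the control libraries lay further apart than the nearest libraries of the 2 genotypes.

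Over the whole list, 31 promoters passed the filter on low counts, all but Spred2. Of these 4 were higher in ex14D-Ezh2 cells, against 5.85% of the 14883 promoters tested, and 2 were lower, against 3.19%. At an unadjusted p under 0.05 the counts were 6 higher and 5 lower. The median log2 fold change was -0.15 for the list and -0.02 for all promoters. The fit scales libraries by TMM. With plain library sizes the median of all promoters moved to -0.47 and that of the list to -0.60. The list then had 7 genes lower and the same count of 4 higher, against 2176 lower and 398 higher of the 14883 promoters. Plain CPM thus lie lower in ex14D-Ezh2 than the fitted changes do. Counts are relative within a library, and no spiked-in reference is described, so a loss or gain common to all promoters would not be seen. A rise here is a rise relative to other promoters of the same library, not a gain of the mark per cell. Total H3K27me3, which the study measured by Western blot, is not analysed here, and fewer marked cells cannot be told apart from less mark per cell. Fgf5 and Fgf9 passed under all 11 alternatives run. Fgf8 and Fgfr3 failed in 1, without control library 2, with edgeR adjusted p of 0.0800 and 0.0559. Fgf20 failed without control library 2, ex14D-Ezh2 library 1 or ex14D-Ezh2 library 2, with log2 fold changes of -1.01, -1.19 and -0.77. Fgf22 failed without control library 2 or ex14D-Ezh2 library 1, with log2 fold changes of -1.44 and -1.72. For Fgf22 only 10 alternatives gave a result, since DESeq2 gave it no adjusted p.

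**Figure D2:**
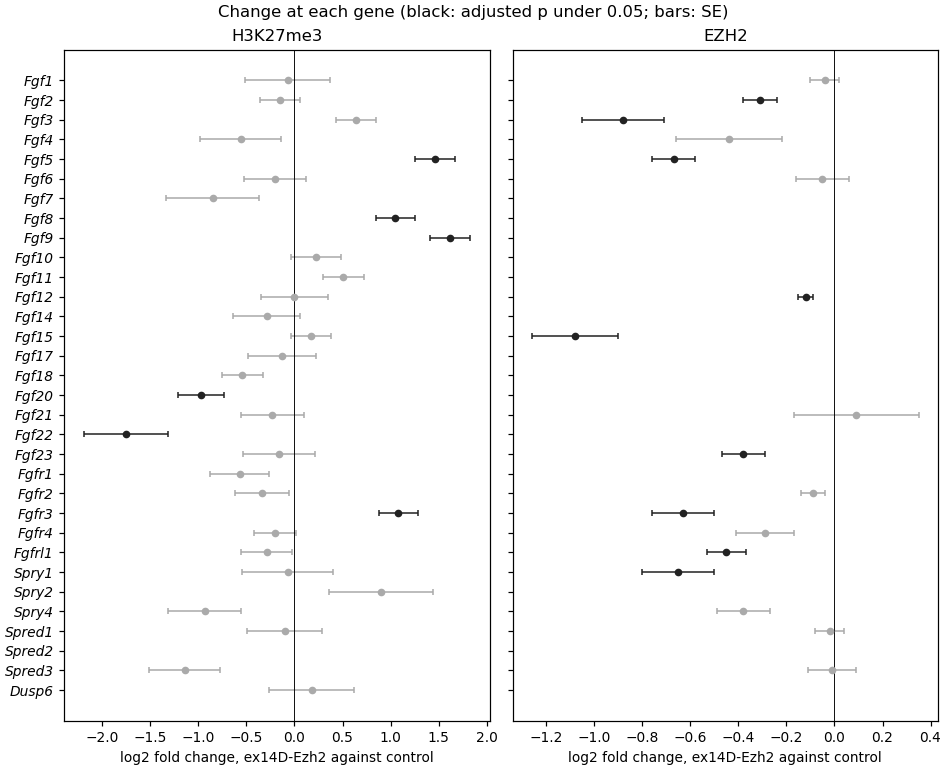
Log2 fold change of ex14D-Ezh2 against control for each gene, left for H3K27me3 promoter counts and right for EZH2 gene counts, with bars of 1 SE and black points for edgeR adjusted p under 0.05. Black points lie on both sides of 0 for H3K27me3, with 4 higher and 2 lower, and on the lower side alone for EZH2, where 9 were lower and 0 higher.

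The size of the H3K27me3 change was set beside the control level, as a description, since both use the control libraries. Promoters were classed by the lower of their 2 control libraries. Of the 20 tested genes under 2-fold over input, 0 rose and 1 fell, with a median log2 fold change of -0.22. Of 3 genes at 2- to 4-fold, 1 rose and 1 fell, with a median of -0.20. Of 6 genes at 4- to 8-fold 1 rose, with a median of 0.34, and both genes at 8-fold or more, Fgf8 and Fgf9, rose, with a median of 1.33. Over all promoters tested the medians of the same 4 classes were -0.09, 0.07, 0.46 and 1.00. The shares called higher were 0.916%, 10.9%, 34.9% and 70.6%, and those called lower 2.86%, 7.24%, 3.13% and 0.249%. The medians of the list were highest in the upper classes, as over all promoters, and did not separate the lower 2 classes. Fgf5, in the second class, had 1.46 against 0.07 for all promoters of that class. With 2 to 20 genes in a class, these medians are a description only, and the class of Fgf3, Fgf5, Fgf11, Fgf18, Fgfr2 and Fgfr3 depends on which control library is used.

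**Figure D3:**
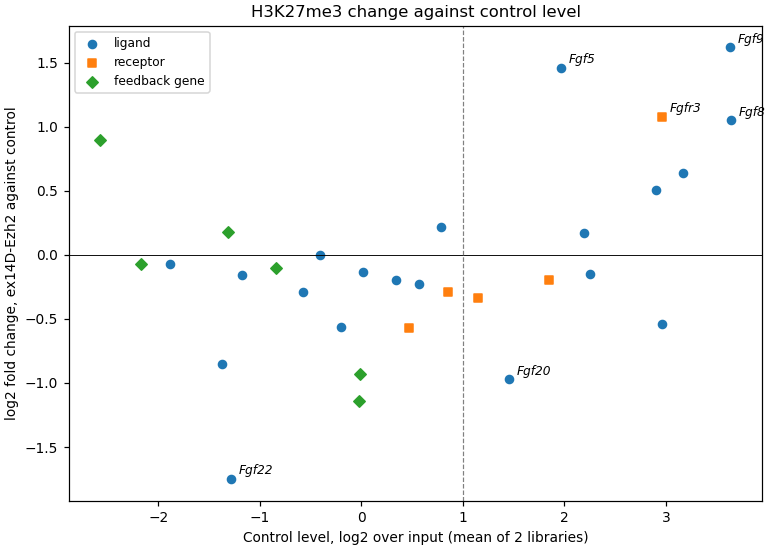
Log2 fold change of H3K27me3 in ex14D-Ezh2 against the control level over input (mean of the 2 control libraries), for the 31 genes tested, with circles for ligands, squares for receptors and diamonds for feedback genes. The dashed line marks 2-fold over input, the 6 genes past the threshold are named, and Fgf5, Fgf8, Fgf9 and Fgfr3 lie at the upper right.

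EZH2 reads had been counted along genes, and 9 of the 18 genes of the list that could be tested fell in ex14D-Ezh2 cells while 0 rose. Among the 13401 genes tested 7.88% were lower and 0.0522% higher. At an unadjusted p under 0.05 the list gave 11 lower and 0 higher, and DESeq2 gave 4 lower and 0 higher. The median log2 fold change was -0.35 for the list and 0.02 for all genes. Because the counts followed gene length, levels are compared between genes as CPM per kb of gene. The control mean was 17.1 CPM per kb at Fgf3, 12.3 at Fgfr3 and 6.18 at Fgf15, against a median of 0.949 over 13884 genes with counts, and the lowest of the 18 was Fgf1 with 0.625.

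**Figure D4:**
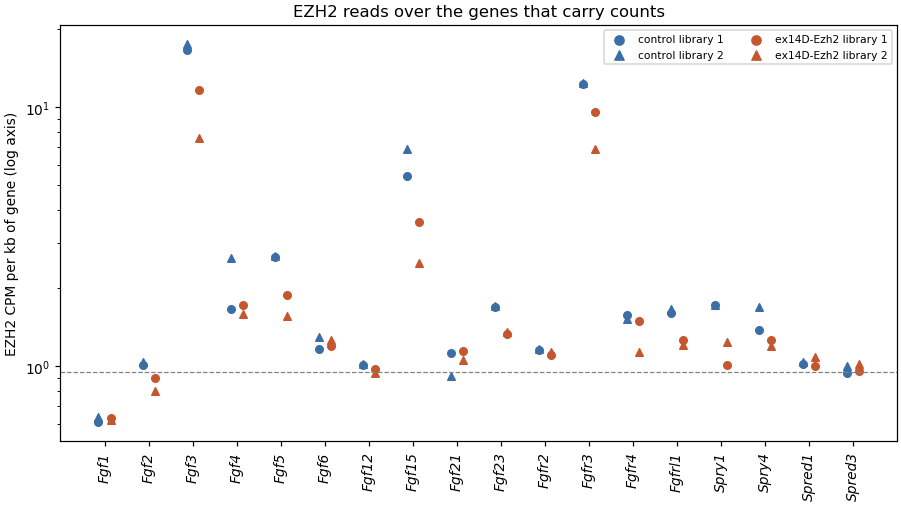
EZH2 CPM per kb of gene on a log axis for the 18 genes with counts, 1 point per library, coloured by genotype and shaped by library number. The dashed line is the control median of all genes with counts, 0.949, and Fgf3, Fgfr3 and Fgf15 stand above the rest in both genotypes with lower values in ex14D-Ezh2.

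At Fgf3, EZH2 counts over the gene were 78.9 and 83.5 CPM in control and 55.3 and 36.2 CPM in ex14D-Ezh2, a fall by 0.88 on the log2 scale (SE 0.17, edgeR adjusted p = 0.0191). At its neighbour Fgf15 they were 24.1 and 30.6 CPM in control and 16.0 and 11.1 CPM in ex14D-Ezh2, with a log2 fold change of -1.08 (SE 0.18, edgeR adjusted p = 0.0110), the largest fall of the list. Fgf4, which lies between them, had 6.42 and 10.1 CPM in control and 6.68 and 6.15 CPM in ex14D-Ezh2 (log2 fold change -0.44, SE 0.22, edgeR adjusted p = 0.400). The genotypes were separate at Fgf3 and Fgf15 and overlapped at Fgf4. At Fgf5 counts were 60.3 and 61.1 CPM in control and 43.2 and 35.9 CPM in ex14D-Ezh2 (log2 fold change -0.67, SE 0.09, edgeR adjusted p = 0.00658), and at Fgfr3 188 and 190 CPM in control and 147 and 106 CPM in ex14D-Ezh2 (log2 fold change -0.63, SE 0.13, edgeR adjusted p = 0.0291). Fgf5 and Fgfr3 therefore had lower relative EZH2 counts over the gene and higher relative H3K27me3 counts at the promoter, each past the threshold of its own fit. At Fgf3 and Fgf15, where EZH2 fell, H3K27me3 did not pass the test.

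The other 5 falls in EZH2 were at genes with a control mean of at most 1.72 CPM per kb. Spry1 had 8.01 and 8.04 CPM in control and 4.70 and 5.78 CPM in ex14D-Ezh2 (log2 fold change -0.65, SE 0.15, edgeR adjusted p = 0.0380). Fgfrl1 had 20.4 and 21.2 CPM in control and 16.1 and 15.3 CPM in ex14D-Ezh2 (log2 fold change -0.45, SE 0.08, edgeR adjusted p = 0.0159). Fgf23 had 15.9 and 16.0 CPM in control and 12.5 and 12.7 CPM in ex14D-Ezh2 (log2 fold change -0.38, SE 0.09, edgeR adjusted p = 0.0380). In all 3 the genotypes were separate. Fgf2 had 62.5 and 63.8 CPM in control and 55.3 and 49.6 CPM in ex14D-Ezh2 (log2 fold change -0.31, SE 0.07, edgeR adjusted p = 0.0348). Fgf12, whose gene spans 595 kb, had 603 and 609 CPM in control and 583 and 563 CPM in ex14D-Ezh2 (log2 fold change -0.12, SE 0.03, edgeR adjusted p = 0.0421). The fall at Fgf12 was a 1.09-fold difference, and Fgf12 and Fgf23 had no EZH2 domain at the promoter in any library.

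The tested genes that did not pass included Fgfr2 with 120, 121, 115 and 118 CPM in control 1, control 2, ex14D-Ezh2 1 and ex14D-Ezh2 2, and Fgfr4 with 25, 24.3, 23.7 and 18.1 CPM (edgeR adjusted p = 0.433 and 0.309). Spry4 had 20.8, 25.7, 19.1 and 18.1 CPM (log2 fold change -0.38, SE 0.11, edgeR adjusted p = 0.103) and Spred1 had 62.6, 63.7, 61.5 and 66.4 CPM (edgeR adjusted p = 0.908). Spry4 was lower in both ex14D-Ezh2 libraries without passing the test, and Spred1 overlapped. The other 4 tested genes, Fgf1, Fgf6, Fgf21 and Spred3, had log2 fold changes of -0.05 to 0.09. The number of EZH2 calls depended on which library was left out, and the median log2 fold change of the 18 genes stayed negative. It was -0.36 without control library 1 and -0.25 without control library 2, against -0.35 in the main fit. With 1 control library, the spread comes from the ex14D-Ezh2 pair alone. That pair differed more than the control pair did (chi-square over degrees of freedom, 4.01 against 1.49). Calls lost in this way do not single out the control libraries. Without control library 1 or without control library 2, 0 of the 18 genes and 0 of all genes passed, with 11 and 9 of the 18 lower at an unadjusted p under 0.05. With DESeq2 Fgf3, Fgf5, Fgf15 and Fgfr3 passed, 4 in all, and Spry1, Fgfrl1, Fgf2, Fgf23 and Fgf12 did not (DESeq2 adjusted p of 0.147, 0.157, 0.343, 0.445 and 1.0). With plain library sizes 5 passed. The calls of Fgf12 and Fgf23 were lost in 6 and 7 of 9 alternatives.

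The other 14 genes of the list, Fgf7, Fgf8, Fgf9, Fgf10, Fgf11, Fgf14, Fgf17, Fgf18, Fgf20, Fgf22, Fgfr1, Spry2, Spred2 and Dusp6, are listed at 0 EZH2 reads in all 4 libraries. Of these 14, 13 lie in uninterrupted stretches of at least 20 genes at 0, the longest of 1388 genes, and 7 have an EZH2 domain at the promoter in both control libraries. Over the genome 10575 genes are listed at 0 in all 4 EZH2 libraries, 99.2% of the genes on chromosome 10 and 95.4% on chromosome 11 but 6.22% on chromosome 9. A count of 0 at these genes is therefore not a measure of EZH2, and Fgf8 and Fgf9, whose relative H3K27me3 counts rose, could not be compared for EZH2 counts.

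Domains and peaks called by the authors in each library gave a further view that includes the genes listed at 0. An EZH2 domain lay over the 1 kb promoter window in both control libraries at 18 of the 32 genes, against 16.8% of 24365 placed genes, and in both ex14D-Ezh2 libraries at 11, against 10.4%. The 18 were 11 ligands, all 5 receptors and the feedback genes Spry4 and Spred1. They included all 11 genes marked by H3K27me3 in control cells. Of the 18, Spry4 and Spred1 had a domain in neither ex14D-Ezh2 library, and Fgf4, Fgf10, Fgfr2, Fgfr4 and Fgfrl1 had one in 1 of the 2 libraries. An H3K27me3 peak covered part of the window at 18 genes in both control libraries, against 18% of placed genes, and at 16 in both ex14D-Ezh2 libraries, against 16.5%. None of the 7 feedback genes had a peak in both libraries of either genotype.

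Widths of domains and peaks were compared next, and the shares that were narrower in ex14D-Ezh2 lay near those over all genes. Among the 11 genes with an EZH2 domain in all 4 libraries, 4 had narrower domains in both ex14D-Ezh2 libraries than in both control libraries, against 44.2% of the 2532 such genes in the genome. At Fgf5 the domain was 7 kb wide in both control libraries and 3 kb in both libraries of ex14D-Ezh2, at Fgf2 4 and 4 kb against 2 and 2 kb, at Fgf18 3 and 5 kb against 2 and 2 kb, and at Fgfr1 7 and 9 kb against 1 and 6 kb. Domain edges fall on multiples of 1 kb, so small differences in width cannot be seen. Fgf9 had domains of 10 and 9 kb in control and 9 and 9 kb in ex14D-Ezh2, and Fgf8 had 11 and 14 kb against 11 and 10 kb, so the widths of the 2 genotypes met at both. H3K27me3 peaks were narrower in both ex14D-Ezh2 libraries at 6 of 14 genes (Fgf2, Fgf9, Fgf18, Fgf20, Fgfr1 and Fgfr4), against 38% of 3681 genes, and wider at 2. The share of wider peaks over all genes was not worked out. Differences of any size were counted, and at Fgf9 the nearest libraries of the 2 genotypes differed by 1 bp. The wider peaks were those of Fgfr3, 14.6 and 17.7 kb in control and 22.3 and 20.4 kb in ex14D-Ezh2, and of Fgf15, 3.92 and 3.81 kb against 5.06 and 3.99 kb. The peak at Fgf5 was 7.32 and 11.1 kb wide in control and 8.39 and 8.27 kb in ex14D-Ezh2, so it had not widened although its promoter counts rose. The fold enrichment deposited with each peak was not used here, because across the promoters with a peak it had a Spearman rho of 0.0517 to 0.0931 with the promoter count over input, whereas peak width had 0.675 to 0.711 (4099 to 5764 promoters per library, which are not independent replicates).

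Fgf3, Fgf4 and Fgf15 lie next to each other on chromosome 7, with TSSs 22.8 kb and 35.1 kb apart (GRCm38, Fgf4 at chr7:144861386-144865245 on the forward strand). Peaks and domains over the 3 starts were separate. At Fgf3 an H3K27me3 peak of 11.0 and 7.73 kb in control and 8.88 and 6.86 kb in ex14D-Ezh2 covered the start, and at Fgf15 the peak was 3.81 to 5.06 kb wide in the 4 libraries. At Fgf4 a peak touched the window in control library 1 (3.57 kb) and in ex14D-Ezh2 libraries 1 (1.26 kb) and 2 (0.305 kb) but not in control library 2, and an EZH2 domain did so in both control libraries and in ex14D-Ezh2 library 2. The ligand made by ES cells thus lay between 2 marked ligands without being marked itself.

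**Figure D5:**
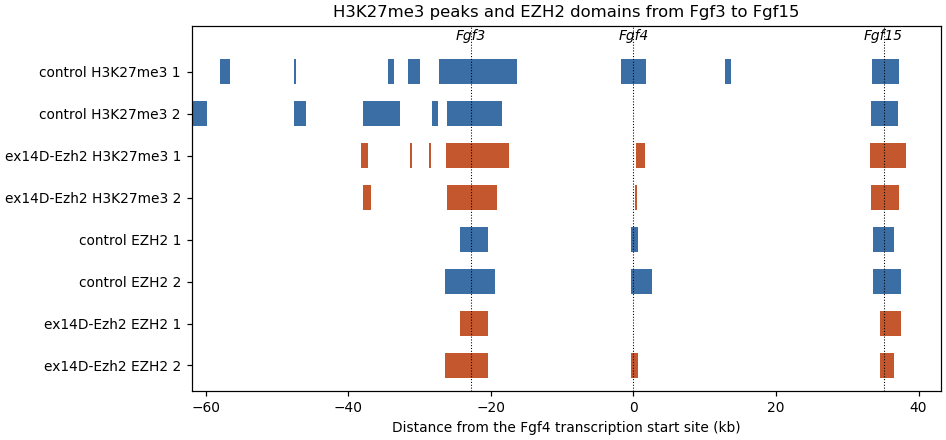
Positions of H3K27me3 peaks (upper 4 rows) and EZH2 domains (lower 4 rows) from Fgf3 to Fgf15 in each library, as distance from the Fgf4 TSS in kb, blue for control and orange for ex14D-Ezh2. Dotted lines mark the 3 TSSs, 22.8 kb before and 35.1 kb after that of Fgf4 for the outer genes, and every library has an interval over Fgf3 and over Fgf15 while those at Fgf4 are short or missing.

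Primer pairs for ChIP-PCR at Fgf4 are listed with the study, and are shown because they locate what they amplify within these intervals.
Fgf4-Pro forward: gaaaggttctggcggttca
Fgf4-Pro reverse: cgcactcgaacctgttgat
Fgf4-Intr forward: gtatgttcatggccctcagtaa
Fgf4-Intr reverse: gtcacagtctaggaaggaagtg
In GRCm38 the first pair gave 1 product, chr7:144861097-144861197, which is 101 bp long and ends 189 bases before the Fgf4 TSS. It lay in an H3K27me3 peak in control library 1 only and in an EZH2 domain in control libraries 1 and 2 and ex14D-Ezh2 library 2. The second pair gave 1 product, chr7:144862847-144862942, of 96 bp, all of it within an annotated exon. That stretch lay in a peak in control library 1 and ex14D-Ezh2 library 1 and in a domain in control library 2.

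CpG content over the 1 kb windows was compared next, as a feature the choice of genes had not used. The ratio of observed to expected CpG had a median of 0.739 (0.378 to 0.966) over the 11 promoters marked in control cells and 0.541 (0.175 to 1.04) over the 21 that were not, with 0.539 over all 24365 placed genes and 0.705 over the 2767 marked ones among them. The ranges overlapped widely. Fgf9 had the highest ratio of the marked genes, 0.966, and Fgf11 the lowest, 0.378, although Fgf11 was at least 6.60-fold over input in every library. Of the 7 unmarked feedback genes 5 lay above the median of the marked genes, 0.739, with 1.04 at Spred1, 0.980 at Spry1, 0.838 at Spry2, 0.819 at Dusp6 and 0.787 at Spry4, while Spred2 had 0.677 and Spred3 0.299. A high ratio alone thus did not separate the marked genes from the others in this list.

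Other genes of the pathway, 55 in all, were taken from a list of coreceptors and FGF-binding proteins, adaptors and the Ras-ERK cascade, targets of the signal, and 2 further FGF genes. In control cells 10 of the 55 promoters were marked, against 11.3% of all promoters. They were 3 of 20 coreceptors and binding proteins, 0 of 21 adaptors and kinases, 6 of 12 targets and 1 of the 2 further FGF genes. For H3K27me3, 2 of the 41 tested rose, against 5.85% of all promoters tested, and 5 fell, against 3.19%, with a median log2 fold change of -0.08. Those that rose were Flrt2, a membrane protein that binds FGF receptors, with 210 and 289 CPM in control and 379 and 378 CPM in ex14D-Ezh2 (log2 fold change 1.04, SE 0.21, edgeR adjusted p = 0.00115), and Fgf16, a relative of Fgf9 and Fgf20, with 335 and 234 CPM in control and 417 and 439 CPM in ex14D-Ezh2 (log2 fold change 1.05, SE 0.21, edgeR adjusted p = 0.00137). Both were marked in control cells. The largest falls were in Hs2st1 (-2.73), Frs3 (-1.38), Myc (-1.22) and Fgfbp3 (-1.08), which code for a heparan sulphate sulphotransferase, a receptor adaptor, a growth-promoting transcription factor and an FGF carrier, and none of these 4 was marked in control cells. The value for Hs2st1 rests on few reads, 0.689 and 2.40 CPM in ex14D-Ezh2. Dusp4, an ERK phosphatase that was marked, also fell (log2 fold change -0.85, edgeR adjusted p = 0.0420). None of these falls passed without control library 2, without ex14D-Ezh2 library 1 or without ex14D-Ezh2 library 2, each of which left 0 genes of the list lower, and without control library 2 the count of higher genes was 1.

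For EZH2, 0 of 32 tested genes of this second list rose, against 0.0522% of all genes tested, and 6 fell, against 7.88%, with a median log2 fold change of 0.00. Of the list, 23 genes are listed at 0 in all 4 libraries. At an unadjusted p under 0.05 the counts were 0 and 10, and DESeq2 gave 0 higher and 4 lower. The 4 largest falls were in Lmo4, a LIM-domain protein (-1.42, edgeR adjusted p = 0.00325), Egr1, an immediate early target of ERK (-1.24, 0.00631), Sdc1, a heparan sulphate proteoglycan (-0.86, 0.00473), and Kl, the coreceptor Klotho (-0.47, 0.0123). Egr1 had 18.3 and 17.6 CPM in control and 9.47 and 6.33 CPM in ex14D-Ezh2, and the groups were separate. As for the first list, without control library 1 or 2 no gene passed, 0 of the 32.

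Some facts of the whole series bear on these values. Reads on gene rows numbered 594289 and 937207 in the control H3K27me3 libraries and 1450937 and 1248018 in the ex14D-Ezh2 ones, 13628137 to 18403892 in the EZH2 libraries, and 409371 and 416778 in the inputs. Counts were simulated with the depth of the H3K27me3 libraries and 1 common spread for all genes. Of the changes among 14883 genes, 16% of 2-fold and 82% of 4-fold ones were recovered, over promoters of all depths. A missed call at a promoter with few reads thus does not show that it was unchanged. For the EZH2 libraries 92% and 97% were recovered among 13401 genes. Spread was not varied between genes or genotypes in the simulation, so these shares need not hold for the real libraries. H3K27me3 marked 1 of 8 pluripotency genes in control cells, Klf4, and all 4 endoderm, 3 mesoderm and 3 neural genes examined.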

How the data were processed

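H3K27me3 and EZH2 ChIP-seq and input libraries were grouped by the antibody and genotype in the labels. Per the labels and the paper's methods, the authors aligned reads to mm10 with Bowtie (Bowtie2 and Trimmomatic are among the tools in the submitters' processing notes) and used htseq-count to obtain the deposited counts, which are raw whole numbers for each gene. The methods state 1 kb promoter windows. The H3K27me3 and input counts were taken as such, and the EZH2 counts, which followed gene length, as counts along genes. Reads on no gene or on several made up the rest of each library (gene rows held 5.65% to 7.58% of counted reads for H3K27me3, 43.9% to 44.3% for EZH2 and 1.90% and 1.92% for input) and stayed out of library sizes. The authors called MACS2 broad peaks and hiddenDomains domains in each library. The score, the fold enrichment ratio, the −log10 p and the −log10 q deposited with a peak are those of the caller, and of these the fold enrichment served for 1 check against the counts and the −log10 q for 1 alternative. The H3K27me3 domains were not used, since they run past the ends of GRCm38 chromosomes.

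Counts of all genes were compared with edgeR 4.0.16 in R 4.3.3, separately for each antibody (filterByExpr, TMM, quasi-likelihood F test, 2-sided, Benjamini-Hochberg adjustment over all genes tested, threshold 0.05). A standard error was taken as the size of the log2 fold change over the root of its F statistic. DESeq2 1.42.0 was an alternative. The level over input used CPM over gene rows and a pseudocount of 1. Genes were placed on GRCm38 with RefSeq, 24365 of 24500, and peaks and domains were assigned to a window of 1000 bp around the 5′-most TSS by at least 1 bp. Other calculations used scipy 1.17.1, pysam 0.24.0 and pandas 2.3.3 in Python 3.11.15. In a check of the same fit on data simulated with 1 common spread and 200 changed genes, 2.97% of the H3K27me3 and 6.44% of the EZH2 calls were false.

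The members of the list, the second list and the tests were chosen with earlier results of these data known. Values in every library are given for genes past the threshold for either antibody, marked in either genotype or with an EZH2 domain in both control libraries, and for Fgf4, Fgf5, Fgfr1, Spry2, Spry4 and Dusp6. Of the second list the genes past the threshold were named, at most the 4 largest changes per direction and antibody. Dusp4 and the pluripotency gene Klf4 were added after their values were seen. Alternatives changed the scaling, the test, the filter, the replicate block, the thresholds, the overlap of intervals and the libraries included. Libraries of the same genotype and antibody differed by more than sampling noise (chi-square per degree of freedom 1.49 to 4.01). The lowest value belonged to the control EZH2 pair and the highest to the ex14D-Ezh2 EZH2 pair.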

Additional observations from a re-analysis of the deposited data

How the results depend on the processing

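Of the genes past the threshold, 42 of 146 results under an alternative lost the call and 0 reversed. With plain library sizes 7 genes of the list were lower for H3K27me3, with a median of -0.60, and 5 were lower for EZH2. Of the second list 12 were lower for H3K27me3 with a median of -0.53, and its EZH2 median was 0.05. Over all genes tested 2176 were then lower and 398 higher for H3K27me3, and 955 lower and 47 higher for EZH2. With DESeq2 1 gene of the list was lower for H3K27me3 and 4 for EZH2. With all counted reads as library size 17 promoters were marked in control cells and 14 in ex14D-Ezh2 cells. With that setting 3 genes of the second list were lower for H3K27me3, as were 3 when counts were centred on unmarked promoters. At a 4-fold threshold 8 promoters were marked in control cells and 7 in ex14D-Ezh2 cells. With 1 library left out, assuming that a lone library varies like the others, the list gave 0 to 3 lower and 2 to 6 higher for H3K27me3 and 0 to 12 lower for EZH2. The second list then gave 0 to 6 lower, 1 to 2 higher and a median of -0.27 to 0.10 for H3K27me3, and 0 to 10 lower for EZH2. The cause of these shifts was not tested.

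Replicate numbers are shared between the genotypes but did not pair the libraries. The correlation of deviations from the genotype means between libraries of the same number was -0.102 for H3K27me3 and -0.0317 for EZH2. With a replicate block 4 genes of the list were lower for EZH2 in place of 9, and 2 lower and 4 higher for H3K27me3. With the numbers crossed in the block, an alternative chosen after seeing the data, 4 were lower and 6 higher for H3K27me3.

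Depth limits the H3K27me3 results, the inputs have no replicate, and genes listed at 0 for EZH2 could not be compared.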
